A study of Mus musculus with 7 samples.

Results

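The 10 genes described here encode enzymes of mitochondrial fatty acid oxidation: Acadm, Acadl, Acadvl, Hadha, Hadhb, Echs1, Cpt1a, Cpt2, Etfa and Etfb. They were taken by symbol from the 55364 genes of the deposited count table, and all 10 were found. Their messages were counted in CD4 T cells, gated as CD45+CD3+CD4+. The cells came from lung tumours grown orthotopically in C57BL/6 mice that were over 8 weeks old and all given tamoxifen. The Control group (5 libraries) had the genotype I-AbF/F, a loxP-flanked allele of an MHC class II chain gene. The Cre group (2 libraries) had the genotype I-AbF/FCol1a2-cre, in which Cre is driven by the Col1a2 promoter, which is active in fibroblasts. The deletion was thus directed at fibroblasts, while the floxed allele and tamoxifen were common to both groups. The question was whether T cells inside the tumour differ when fibroblasts lack MHC class II.

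Long-chain fatty acids enter the mitochondrion as carnitine esters, made by Cpt1a in the outer membrane and turned back into acyl-CoA by Cpt2 in the inner membrane. Acyl-CoA dehydrogenases (Acadvl for very long, Acadl for long and Acadm for medium chains) begin each round of beta-oxidation, and the trifunctional protein of Hadha and Hadhb, or Echs1 for shorter chains, carries it on. The electrons taken by the dehydrogenases pass to the flavoprotein dimer of Etfa and Etfb and from there to the respiratory chain. In T cells the pathway is known for its use by memory and regulatory cells, whereas effector cells rely more on glycolysis.

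Total counts ran from 1484655 to 1724346 in Control and were 1929899 and 1449739 in Cre replicates 1 and 2. The Cre libraries had more empty genes. Of the 9854 genes tested, 25.01% had no count in Cre replicate 1 and 33.6% in Cre replicate 2, against 12.3% to 16.05% in Control replicates 2 to 5 and 1.14% in Control replicate 1, which stood apart from the others. In bulk libraries, fewer cells of a type and less RNA per cell cannot be told apart. Each of 8 listed markers of CD4 T cells had counts in every library, and they summed to 4390 to 5289 CPM (counts scaled to a library total of 1000000) in the Control libraries, with 5516 and 3888 CPM in Cre. Trbc2 and Lck made up most of the sum. In Cre replicate 2, 3 of the markers were under the lowest Control library: Cd3e was at 2.07 CPM, the limit that a count of 0 allows there, against 34.4 to 235 CPM, Cd3g at 29.0 against 42.4 to 305 CPM, and Lck at 566 against 1028 to 1991 CPM. H2-Ab1, which encodes the floxed chain, had 108, 76, 183, 153 and 110 counts in the Control libraries, with 87 and 112 in Cre, and in sorted T cells it does not check the deletion in fibroblasts. The animals were called gender-matched, yet Ddx3y, a Y-linked gene, had 1, 34, 141, 2 and 0 counts in the Control replicates and 76 and 89 in the Cre replicates, and Xist, expressed from the inactive X of females, had 340, 16, 76, 266 and 476, and 1 and 86. Markers of sex thus varied from library to library, and their part in the results was not tested.

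The summed level of the 10 enzymes differed by less than the spread between Control libraries, at 358 ± 144 CPM in Control (SD, n = 5) and 369 ± 17.3 CPM in Cre (n = 2). The enzymes that made up the sum were not the same. Etfb and Acadm, the pair with higher means in Cre, together held 12.4% to 31.4% of the counts in Control and 62.1% and 76.9% in Cre replicates 1 and 2. The other 8 enzymes summed to 162 to 378 CPM across the Control libraries, and 135 and 88.3 CPM were found in Cre. This grouping was made after the values were seen, so the separation is a description and not a test. Cre replicate 2 had counts for 4 of the 10 genes (Etfb, Acadm, Acadl and Hadha) and Cre replicate 1 for 7, against 8 to 10 in Control.

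**Figure D1:**
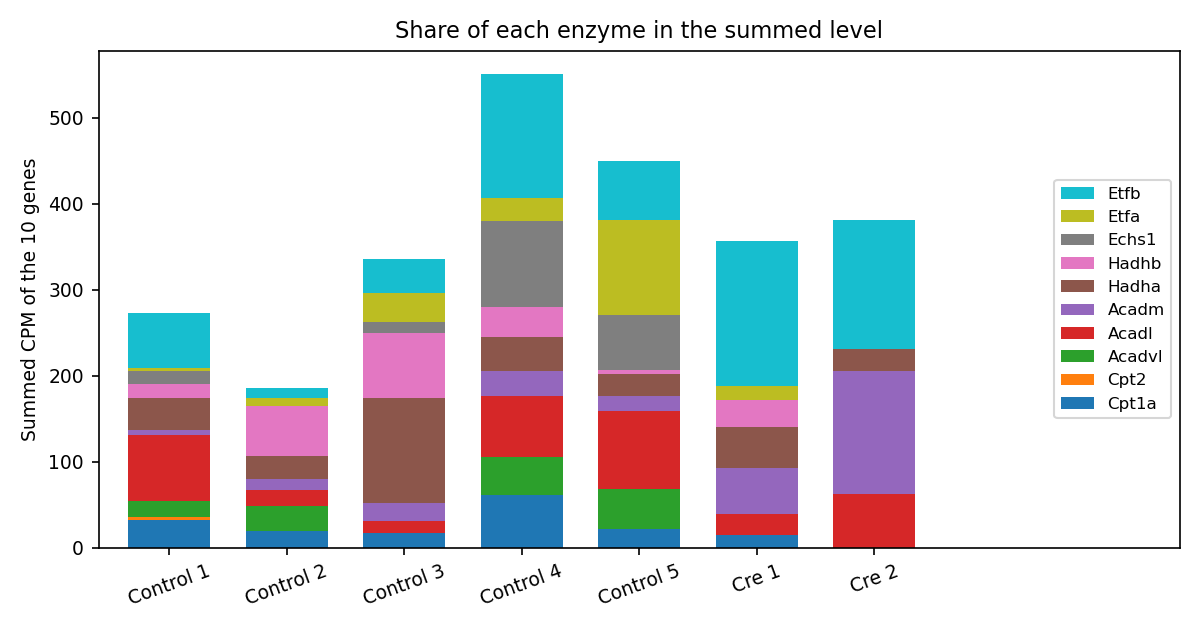
Summed level of the 10 enzymes in each library (bar height, in CPM) divided by gene (colours). The bars reach 185 to 550.4 CPM across the Control libraries, with 357 and 381 CPM in Cre, and Etfb with Acadm fills 62.1% and 76.9% of the Cre bars.

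No enzyme passed the test across all genes, a test that missed most simulated log2 changes of 2 or 4 in either direction. In edgeR's quasi-likelihood test with Benjamini-Hochberg adjustment at 0.05, 0 of the 9 tested enzymes were called higher and 0 lower, where 0% of all tested genes were called higher and 0.0101% (1 gene) lower. At an unadjusted p under 0.05, 1 enzyme (Acadm) was higher, against 1.41% of all tested genes, and 2 (Acadvl and Echs1) were lower, against 10.2%. DESeq2 on the same genes called those same 2 lower at an adjusted p under 0.05, where it called 7% of genes with an adjusted p lower, and called 0 enzymes higher, where it called 0.373%. Cpt2 did not pass the filter on low counts. Acadvl and Echs1 passed it through the Control group alone, so a difference was built into their being tested. The same held for each tested gene named below with 0 counts in both Cre libraries, and for Abcd3, Ech1 and Prkaa1. Cpt1a, Hadhb and Etfa reached 10 counts in only 1 Cre library, as did Rxrb and Esrra, named below. These genes also needed the Control counts to pass the filter, so their lower values in Cre carry part of the same limit. The median log2 fold change (Cre minus Control) was −1.23 over the 9 tested enzymes and −0.39 over all tested genes, a median that ran from −2.40 to −0.12 over the other settings tried. Of the 9, 2 had a higher fitted value in Cre (39.9% of all tested genes) and 7 a lower one (60.1%). A count of 0 in at least 1 Cre library was found for 5 of the 9 (Acadvl, Echs1, Cpt1a, Hadhb and Etfa), and for 44.9% of all tested genes.

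**Figure D2:**
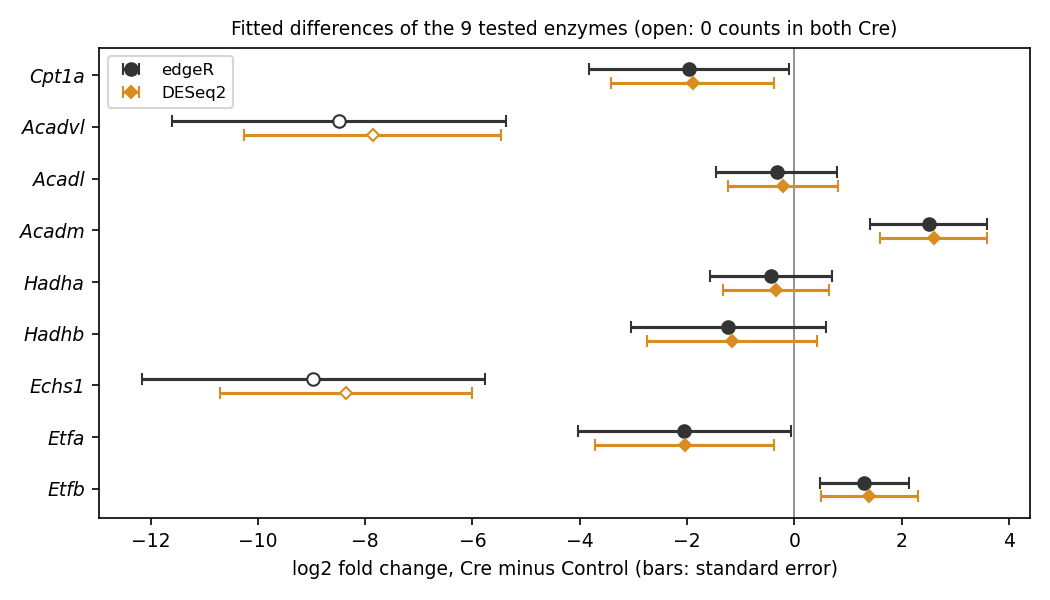
Log2 fold change (Cre minus Control) of the 9 tested enzymes by edgeR (circles) and DESeq2 (diamonds), with bars of 1 standard error; open symbols mark genes with 0 counts in both Cre libraries, whose fitted value is not a bound. Acadm (2.50) and Etfb (1.30) lie right of 0 by edgeR and the other 7 lie left of it.

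Reads were counted in 3′ regions, so the position of those regions decides what each value stands for. All positions are in mm10, and the 10 genes had the same start and end in GENCODE M21. The last region of each gene held 92.2% to 100% of its counts, apart from Etfb, and extended 249 bases past the annotated gene end. For Acadm (ENSMUSG00000062908, minus strand of chromosome 3, 153922357 to 153944632) that region lay at 153922108 to 153922930 and held 574 bases of 3′ UTR. For Echs1 (ENSMUSG00000025465, minus strand of chromosome 7, 140105710 to 140116476) it lay at 140105461 to 140106311, with 602 bases of 3′ UTR. For Acadvl (ENSMUSG00000018574, minus strand of chromosome 11, 70010183 to 70015411) it lay at 70009934 to 70010295, with 113 bases of 3′ UTR. Etfb (ENSMUSG00000004610, plus strand of chromosome 7, 43444083 to 43457800) was counted in 2 regions. The first, at 43456574 to 43456822, covered 64 coding and 185 intronic bases and held 40.7% of the counts, and the second, at 43457665 to 43458049, held 59.3%. On minus strands lie Acadl (ENSMUSG00000026003, chromosome 1, 66830839 to 66863277), Hadha (ENSMUSG00000025745, chromosome 5, 30118304 to 30155162), Cpt2 (ENSMUSG00000028607, chromosome 4, 107903981 to 107923610) and Etfa (ENSMUSG00000032314, chromosome 9, 55454508 to 55512243). On plus strands lie Hadhb (ENSMUSG00000059447, chromosome 5, 30155248 to 30184593) and Cpt1a (ENSMUSG00000024900, chromosome 19, 3322334 to 3385733).

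Hadha and Hadhb, the subunits of the trifunctional protein, lie head to head on chromosome 5, with annotated 5′ ends 86 bases apart, so their promoter windows share sequence. The RefSeq windows of both (GRCm38.p6, 250 bases before to 50 after the RefSeq start) have 228 bases in common. A GC box in the shared stretch, at chr5:30155153-30155178, is shown as each gene reads it, beside a CCAAT box of each subunit of the flavoprotein, Etfa (chr9:55512240-55512264, minus strand) and Etfb (chr7:43444033-43444057, plus strand). Capitals mark the motif on either strand.
Hadha: gtcagacactCCGCCCtctcctcgga
Hadhb: tccgaggagaGGGCGGagtgtctgac
Etfa: gcgtggctgcCCAATgggctcccgg
Etfb: gcgacggttgATTGGtcggtgttgc
Of the 10 windows, 7 held GGGCGG on either strand, against 35.7% of 32851 promoter windows of the same length, and 3 held CCAAT (Cpt1a, Etfa and Etfb), against 37.4%. None of the 10 held TATAAA (13.6% of all windows), the E-box CACGTG (7.15%) or TCAAGGTCA, the extended half-site of estrogen-related receptors (0.423%), and 1 (Cpt2) held CCGGAAG, a site of ETS factors (8.86%). The 10 windows had a median GC content of 60.5%, and all windows 52.7%. These are matches of letters in a short window and say nothing of binding.

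Cpt1a, the gatekeeper of entry on the outer membrane, had 54, 29, 27, 105 and 36 counts in the Control libraries, with 29 and 0 in Cre. In CPM both Cre values (15.03 and 0) were under all 5 Control values (16.6 to 60.9), as was so for 10.9% of all tested genes, and the gap of Cre replicate 1 to the lowest Control was small. The log2 fold change of −1.97 ± 1.86 did not pass (edgeR adjusted p = 0.726). It came to −0.97 without Cre replicate 2 and to −8.61 without Cre replicate 1, which leaves a Cre group at 0 and a fitted value that depends on the prior count. Cpt2, the partner on the inner membrane, was barely detected. It had 5 counts in Control replicate 1 and 0 in the other 6 libraries, where a count of 0 allows up to 3 counts, or 1.55 to 2.07 CPM per library, so no difference was detectable at this depth.

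Acadm, the medium-chain dehydrogenase, had 10, 18, 35, 51 and 28 counts in Control replicates 1 to 5, with 102 and 207 in the Cre replicates. Scaled to the library totals these were 5.93 to 29.6 CPM across the Control libraries, and 52.9 and 142.8 CPM were found in Cre. Both Cre values exceeded all 5 Control values, as they did for 4.05% of all tested genes. The log2 fold change was 2.50 ± 1.09 (SE; edgeR adjusted p = 0.427; DESeq2 adjusted p = 0.0875), so the gene did not pass. The size rested in part on Cre replicate 2, as the fold change was 1.67 ± 1.56 without it and 3.06 ± 1.11 without Cre replicate 1. In the last region alone the counts were 10, 0, 24, 51 and 28 in the Control libraries, with 102 and 207 in Cre. All 18 counts of Control replicate 2 fell in internal regions, which were at 0 in both Cre libraries.

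Acadvl, the very-long-chain dehydrogenase, had no count in Cre. It had 32, 42, 0, 77 and 74 counts in Control and 0 in both Cre libraries, as 13.7% of all tested genes had. Against the 3 counts that a count of 0 allows (0.888 CPM over both Cre libraries), its Control mean of 27.5 ± 19.0 CPM was at least 31.0-fold higher. That limit covers counting error and not the spread between libraries. Acadvl did not pass edgeR (adjusted p = 0.422) and passed DESeq2 (adjusted p = 0.0203). The groups were not fully apart, since Control replicate 3 was also at 0. Its last region lies wholly within a counted region of Dvl2 on the opposite strand, which had 209, 87, 82, 120 and 73 counts in the Control libraries, with 154 and 58 in Cre, and the use of strand in counting is not given in the sources used here.

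For Acadl, the long-chain dehydrogenase, the groups overlapped. It had 129, 29, 23, 122 and 149 counts in the Control libraries, with 47 and 91 in Cre, and the Cre libraries lay inside the Control range of 14.1 to 91.5 CPM. The log2 fold change was −0.33 ± 1.12 (edgeR adjusted p = 0.95). Within the 3 dehydrogenases, Acadm took 5.85%, 20.2%, 60.3%, 20.4% and 11.2% of the counts in Control replicates 1 to 5, with 68.5% and 69.5% in the Cre replicates. The exact 95% interval was 46.6% to 72.95% in Control replicate 3, where only 58 counts were present, and overlapped those of both Cre libraries (60.3% to 75.8% and 63.9% to 74.6%). Such intervals and limits cover counting error only.

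Echs1, the short-chain enoyl-CoA hydratase, had 25, 0, 21, 172 and 105 counts in Control and 0 in both Cre libraries. Its Control mean was 38.4 ± 42.2 CPM, at least 43.3-fold higher than the limit over both Cre libraries, for counting error only. It did not pass edgeR (adjusted p = 0.408) and passed DESeq2 (adjusted p = 0.0102). Control replicate 2 had no count either, and the Control libraries with counts spanned 12.9 to 99.7 CPM. In the authors' deposited table, Echs1 and Acadvl were the 2 members with an FDR under 0.05 (0.0214 and 0.0228), both lower, where 3.64% of genes with an FDR were so. No member was so and higher, against 0.211% of genes, and Acadm missed the threshold (0.0537).

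**Figure D3:**
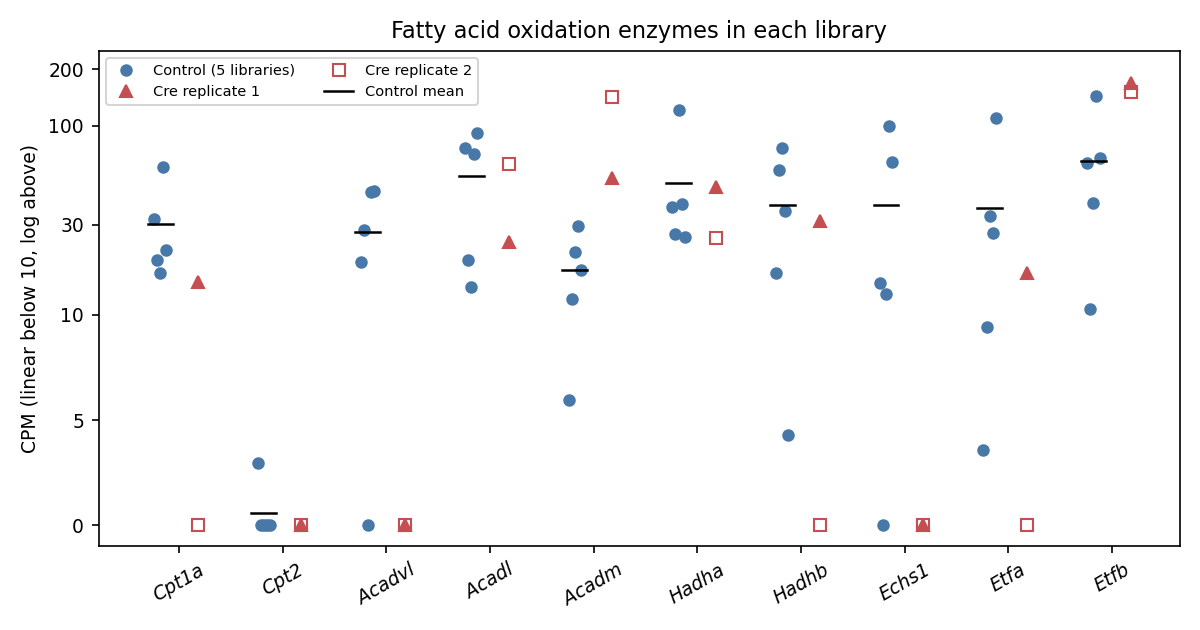
CPM of each enzyme in the 5 Control libraries (circles, with their mean as a line) and in Cre replicates 1 (triangles) and 2 (squares); the axis is linear below 10 and logarithmic above. Both Cre libraries lie above all Control circles for Acadm and Etfb and at 0 for Acadvl, Echs1 and Cpt2.

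Etfb, the beta subunit of the electron transfer flavoprotein, had 107, 16, 64, 247 and 110 counts in the Control libraries, with 326 and 218 in Cre. The Cre values (168.9 and 150.4 CPM) exceeded all 5 Control values, though the highest of these reached 143.2 CPM. The log2 fold change was 1.30 ± 0.83 (edgeR adjusted p = 0.514) and did not pass. Its first region had 29, 7, 0, 132 and 31 counts in the Control libraries, with 147 and 97 in Cre. Its second had 78, 9, 64, 115 and 79 in the Control libraries, with 179 and 121 in Cre. Scaled to the library totals, the second region was higher in each Cre library than in all 5 Control libraries. In the first, Control replicate 4 was slightly above Cre replicate 1 and further above Cre replicate 2. The groups were thus apart in the second region and not in the first. The second region shares 154 bases on the same strand with a region of Mir7051, which had 84, 10, 64, 144 and 82 counts in the Control libraries, with 223 and 150 in Cre. Reads of the 2 genes there cannot be separated. Gm45233, whose sequence was identical to Etfb over its last 500 bases, had 1 count in Control replicate 4 and 0 elsewhere.

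Etfa, the alpha subunit, did not follow its partner. It had 6, 14, 54, 47 and 180 counts in the Control libraries, with 32 and 0 in Cre. The log2 fold change of −2.05 ± 1.99 did not pass (edgeR adjusted p = 0.738). It came to −1.05 without Cre replicate 2, to −1.09 without Control replicate 5 and to −8.84 without Cre replicate 1, where Cre is again at 0. Etfb took 94.7%, 53.3%, 54.2%, 84.01% and 37.9% of the counts of the pair in Control and 91.1% and 100% in Cre. Cre replicate 1 thus lay inside the Control range, and Cre replicate 2 had no count of Etfa.

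The alpha and beta subunits of the trifunctional protein also varied apart. Hadha had 63, 40, 197, 67 and 42 counts in the Control libraries, with 92 and 37 in Cre, and its log2 fold change was −0.43 ± 1.14 (edgeR adjusted p = 0.936). Hadhb had 28, 87, 124, 61 and 7 counts in the Control libraries, with 61 and 0 in Cre, and its log2 fold change was −1.23 ± 1.81 (edgeR adjusted p = 0.861). Hadha took 31.5% to 85.7% of the pair's counts in Control, 60.1% in Cre replicate 1 and 100% of 37 counts in Cre replicate 2 (exact 95% interval 90.5% to 100%). For Hadhb the log2 fold change was −0.22 without Cre replicate 2 and −8.93 without Cre replicate 1, where Cre is at 0. A processed pseudogene of Hadhb matched the last 500 bases of its transcripts at 99.1% identity over 346 bases and had 3, 2, 7, 80 and 16 counts in Control and 0 in Cre, so the level of Hadhb is uncertain to that extent.

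**Figure D4:**
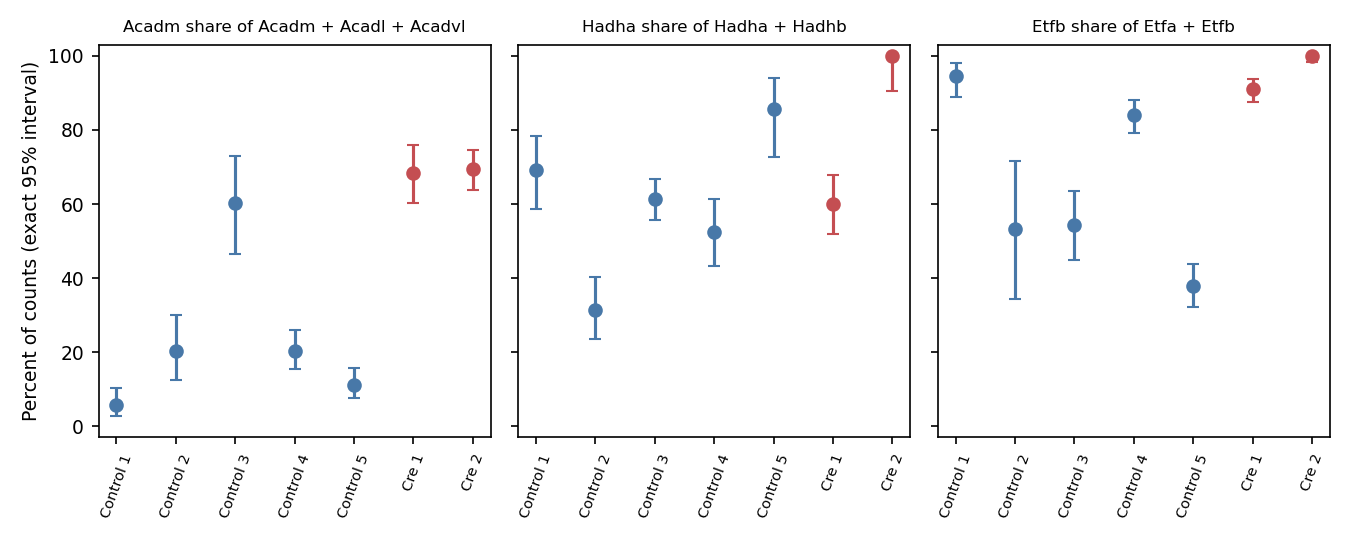
Share of counts (percent, with exact 95% intervals for counting error) taken by Acadm among the 3 dehydrogenases, by Hadha in the trifunctional pair and by Etfb in the flavoprotein pair, for each Control (blue) and Cre (red) library. Acadm stands at 68.5% and 69.5% in Cre and at 60.3% in Control replicate 3, while the other pairs spread widely within Control.

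The Control libraries alone varied far more than counting allows. The coefficient of variation among them ran from 52.2% (Acadm) to 117% (Etfa) over the 9 tested enzymes, where counting alone would give 9.6% to 18.8%. Over tested genes grouped by their mean in all 7 libraries, the median was 63.8% between 30 and 100 CPM and 105% under 30 CPM. Per kilobase of the regions that held counts, Control means ran from 102 ± 77.8 CPM for Etfb through 79.2 ± 92.5 for Etfa and 64.6 ± 41.8 for Acadl to 14.1 ± 8.45 for Cpt1a, 10.1 ± 5.26 for Acadm and 1.19 ± 2.65 for Cpt2. The Control ranges of every pair of neighbours in that order overlapped. A region length is not a transcript length in 3′ counting, so the order is approximate.

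Of 21 other genes of mitochondrial beta-oxidation, listed with earlier results of these data known, 18 were tested and none passed edgeR. At an unadjusted p under 0.05, 0 were higher (1.41% of all tested genes) and 1 lower (10.2%). DESeq2 called 0 of them, where it called 0.373% of genes higher and 7% lower. These shares apply to each list below. Of the 18, the fitted value was higher in Cre for 13 (39.9% of all tested genes) and lower for 5 (60.1%). The median log2 fold change was 0.64, beside −0.39 over all tested genes. A higher fitted value could rest on 1 Cre library. Acad9 had 0 and 94 counts in Cre replicates 1 and 2, and Pccb 38 and 0. Of the 18, 6 had no count in Cre replicate 1 (25% of all tested genes) and 7 none in Cre replicate 2 (33.6%). In CPM, 2 of the 18 exceeded all Control values in each Cre replicate (4.05%), and 1 was under all of them in each (10.9%). The 21 genes summed to 425 to 555 CPM across the Control libraries, and 676 and 1040.2 CPM were found in Cre. Slc25a20, the carnitine-acylcarnitine carrier that stands between the Cpt enzymes, had 23, 0, 108, 51 and 106 counts in the Control libraries, with 400 and 156 in Cre, above every Control library (log2 fold change 2.21 ± 1.22, edgeR adjusted p = 0.444). Etfdh, the oxidoreductase that takes electrons from the flavoprotein, had 21, 0, 3, 78 and 14 counts in Control and 0 in Cre (edgeR adjusted p = 0.427). This was at least 15.4-fold below the Control mean (13.6 ± 18.4 CPM), a limit that covers counting error and not the spread between libraries. Acaa2, the last enzyme of the round for medium chains, was at 0 in both Cre libraries, as it was in 3 of the 5 Control libraries. Mcee, which acts in the disposal of propionyl-CoA, had 17, 1, 0, 22 and 0 counts in Control and 0 in Cre.

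In peroxisomes, which shorten very long chains, 10 of 16 listed genes were tested, with 0 called by edgeR (unadjusted p under 0.05 for 0 higher and 1 lower; 1 lower by DESeq2) and a median log2 fold change of −0.68. The transporter Abcd3 had 38, 4, 51, 31 and 74 counts in the Control libraries, with 0 and 1 in Cre, below every Control library (edgeR adjusted p = 0.422, DESeq2 0.0397). It passed the filter on low counts through Control alone. Ech1 had 43, 42, 66, 60 and 0 counts in the Control libraries, with 5 and 0 in Cre, and Pecr 12, 40, 0, 6 and 1 in Control and 0 in both Cre libraries. Acox3, an acyl-CoA oxidase, had 97.3 ± 41.6 CPM across the Control libraries, and 74.1 and 292 CPM were found in Cre replicates 1 and 2.

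Among 15 tested genes of fatty acid uptake, release and activation (of 19 listed), 0 passed edgeR (unadjusted p under 0.05 for 0 higher and 1 lower; 1 lower by DESeq2). Lipa, the lysosomal acid lipase, had 93, 138, 84, 113 and 79 counts in Control and 0 in both Cre libraries. Its Control mean of 62.8 ± 18.05 CPM was thus at least 70.7-fold higher, a limit for counting error only (edgeR adjusted p = 0.217, DESeq2 4.75e-05). As Lipa passed the filter through Control alone, a difference was built into its being tested. Plin2, a coat protein of lipid droplets, had 24, 5, 15, 0 and 5 counts in the Control libraries, with 158 and 70 in Cre, above every Control library (log2 fold change 3.41 ± 1.58, edgeR adjusted p = 0.429). Lipe, the hormone-sensitive lipase, had 230 counts in Cre replicate 1 alone, with 0 in Cre replicate 2 and 2 to 22 in Control. Acsl5, a long-chain acyl-CoA synthetase, had 1553 counts in Control replicate 4, 106 to 237 in the other Control libraries and 178 and 58 in Cre.

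Of 17 tested regulators (of 23 listed), the fitted value was higher in Cre for 9 (39.9% of all tested genes) and lower for 8 (60.1%). In all, 0 passed edgeR (unadjusted p under 0.05 for 0 higher and 1 lower), and DESeq2 called 1 lower. Both Cre libraries lay below every Control library for 4 of them (10.9% of all tested genes) and above for 0 (4.05%). Among the 4, Rxrb, a partner of nuclear receptors, had 128 ± 80.0 CPM across the Control libraries, and 21.8 and 0 CPM were found in Cre (edgeR adjusted p = 0.422, DESeq2 0.0336). Esrra, an orphan receptor known to act on genes of this pathway, had 25, 32, 40, 143 and 117 counts in the Control libraries, with 0 and 11 in Cre (edgeR adjusted p = 0.442). Prkaa1, a catalytic subunit of AMP-activated kinase, had 43, 8, 31, 17 and 5 counts in the Control libraries, with 0 and 1 in Cre (edgeR adjusted p = 0.429). Ppard, a fatty acid sensing receptor, had 100 counts in Cre replicate 1, none in Cre replicate 2 and 0 to 14 in Control. Pparg, Ppargc1a and Prkaa2 had no count in any library.

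**Figure D5:**
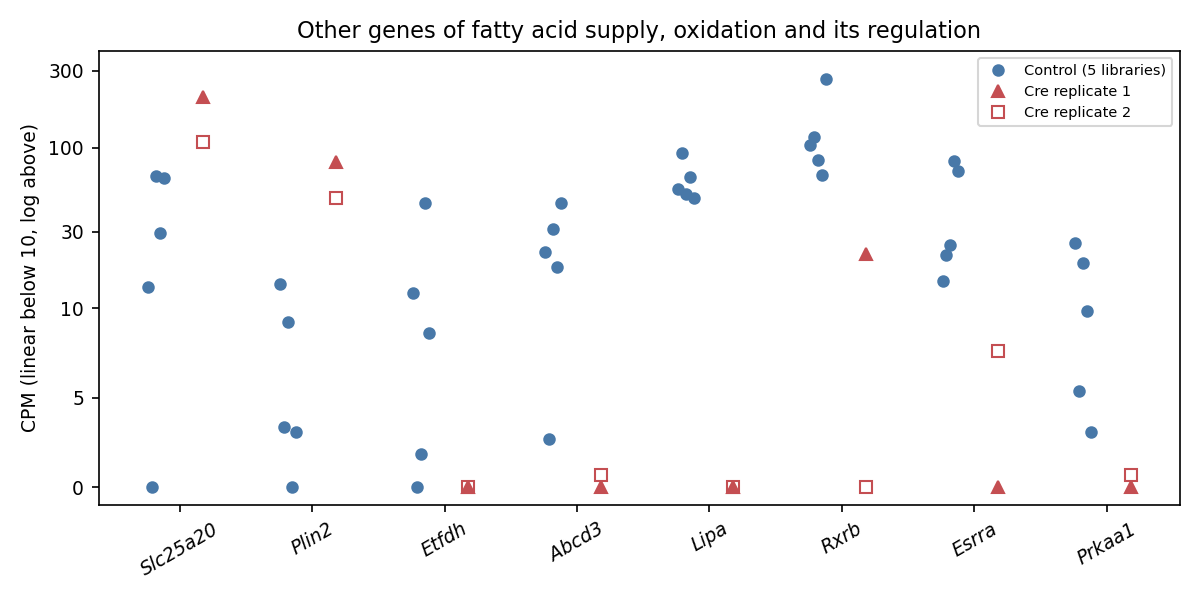
CPM of 8 genes around the pathway, picked after their values were seen, in Control (circles) and in Cre replicates 1 (triangles) and 2 (squares); the axis is linear below 10 and logarithmic above. Cre values exceed all Control values for Slc25a20 and Plin2 and lie below them for Abcd3, Lipa, Rxrb, Esrra and Prkaa1, Etfdh is at 0 in both Cre replicates and 1 Control replicate, and none of the 8 passed edgeR.

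Markers of other cells also varied between libraries, and their part in the results was not tested. The 12 macrophage and monocyte markers summed to 14.5 to 71.3 CPM in Control replicates 1 to 4, to 6696 CPM in Control replicate 5, where Apoe alone had 6676 CPM, and to 2.59 and 5.52 CPM in Cre, with 8 of the 12 at 0 in both Cre libraries, Lyz2 and Csf1r among them. Adgre1 and C1qc had no count in any library. Of the 12 macrophage and monocyte markers, 4 passed the filter on low counts, and 1 of them was at 0 in both Cre libraries (13.7% of all tested genes). Csf1r was at 1.19 CPM in Control replicate 1 and at 0 in the other Control libraries. The Cre libraries lay lowest in the summed markers and in Lipa. Among the Control libraries, replicate 5 had the highest sum, nearly all of it Apoe, and the lowest Lipa (48.5 CPM). Control replicate 2 had the highest Lyz2 (36.4 CPM) and the highest Lipa (92.95 CPM). Whether such cells bear on the level of Lipa was not tested. The 12 fibroblast markers summed to 303 to 920.3 CPM across the Control libraries, and 2094 and 87.6 CPM were found in Cre. Fn1 made 1748 CPM of the first of these, and Pdgfrb was at 0 in every library. Of the 8 fibroblast markers tested, 2 had a higher fitted value in Cre (39.9% of all tested genes) and 6 a lower one (60.1%). Both Cre libraries lay below every Control library for 3 of them (10.9% of all tested genes) and above for 0 (4.05%). B cell markers summed to 18.6 to 354 CPM across the Control libraries, and 159 and 41.4 CPM were found in Cre, and those of CD8 T and NK cells to 62.3 to 226 CPM and to 51.8 and 75.9 CPM. Dendritic, neutrophil, epithelial and endothelial lists each summed to at most 68.7 CPM in every library.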

How the data were processed

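Sorted CD4 T cells from lung tumours were profiled by 3′ UTR RNA-seq (RNA isolated with NucleoSpin, libraries made with NEB Next Ultra) per the labels' protocols, in 5 Control and 2 Cre libraries grouped by title. The deposited table holds raw counts for 116000 regions, per the file headers. The submitters' processing notes list HISAT2 2.1.0, FastQC 0.11.8 and DESeq2, with the genome build mm10. Not given in the sources used here are the counting tool and its use of strand. The authors' deposited comparison gives DESeq2 p-values with an FDR, a fold as a ratio of normalized values, its log2, and gene GC content as a percent, per the file headers.

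Counts were summed per gene. The main test was edgeR 4.0.16 in R 4.3.3 (quasi-likelihood F-test, TMM, robust, group only, filterByExpr with minimum count 10 and total 15), which kept 9854 genes, with Benjamini-Hochberg adjustment over all of them. The standard error came from the F statistic. CPM use library totals. Alternatives were DESeq2 1.42.0, other scalings and filters, each library left out, the replicate block and, added after seeing the data, the most-counted region alone. The script was tested on 3 simulated data sets with 200 changed genes each. The main test recovered 12% of log2 changes of −4, 2% of −2, 8% of 2 and 39.3% of 4. Of its calls there, 9.8% were false. A gene that did not pass may thus still differ. Libraries were compared in pairs by chi-square, and none agreed within sampling noise. The design calls the libraries biological replicates. All members were named, and of each pathway list up to 4 tested genes by smallest p, with some others named after their values were seen. The members and lists were chosen with earlier results of these data known. Of 205 list entries, 1 (Mut, as Mmut) matched under another symbol. Promoter sequences are from RefSeq (GRCm38.p6), with all 10 members matched.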

Additional observations from a re-analysis of the deposited data

Results flagged for a closer look

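In each group of 5 Control libraries, the gap of the highest or lowest library to its nearest neighbour was set against the whole range, with a limit of 0.71 (Dixon's 95% value). It was passed in 13 of 50 groups of values, where chance gives about 1 in 20 for values that follow a normal distribution, which skewed CPM do not. Among the members, Hadha stood at 121 CPM in Control replicate 3 (next 38.9), Etfa at 111 CPM in Control replicate 5 (next 33.2) and Cpt2 at 2.97 CPM in Control replicate 1 (next 0). The log2 fold change of Hadha turned from −0.43 to 0.22 without Control replicate 3.

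Of the other genes, Etfdh stood at 45.2 and Acsl5 at 901 CPM in Control replicate 4, Pecr at 26.9 CPM in Control replicate 2, Rxrb at 267 CPM in Control replicate 5 and Ppard at 8.30 CPM in Control replicate 1. Control replicate 4 also stood apart in the sums for fatty acid uptake, release and activation (1228 CPM) and for fatty acid synthesis (6720.2 CPM). Control replicate 5 did so in fibroblast markers (920.3 CPM) and macrophage and monocyte markers (6696 CPM), and Control replicate 1 in neutrophil markers (11.3 CPM).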

How the results depend on the processing

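Over 14 alternatives, 118 of 124 repeats of the members' fold changes kept their direction and their side of the threshold. Acadl turned from −0.33 to 0.025 with the replicate block and to 0.21 without Cre replicate 1 (−1.12 to 0.21 over single libraries left out), and Hadha from −0.43 to 0.15 with the block and to 0.22 without Control replicate 3 (−0.95 to 0.22). DESeq2 brought Acadvl and Echs1 past the threshold. The stricter filter (10 counts in 5 libraries) left out Acadvl and Echs1. Over all genes the calls were 0 higher and 1 lower; they were 15 and 28 without a filter, 32 and 601 with DESeq2, and 0 lower with the block. Leaving out single libraries gave 0 to 17 higher and 1 to 202 lower, the highest of both without Cre replicate 1; then the lone Cre library is assumed to vary like Control. The cause was not tested. The summed level in Cre moved from 369 to 394 CPM with DESeq2 size factors. The median log2 fold change of all genes, −0.39, moved with the setting: it was −0.29 with these factors, −0.49 with upper-quartile factors, −0.12 with the stricter filter, −1.32 without a filter, −0.92 with the block, −2.40 without Cre replicate 1, −1.22 without Cre replicate 2 and −0.34 to −0.26 without single Control libraries.

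Replicate numbers 1 and 2 occur in both groups, but nothing states that they pair libraries. Same-numbered libraries deviated together from their group means by a correlation of 0.003 and 0.002, and Control replicate 5 with Cre replicate 1 by 0.005. With 2 Cre libraries, each Control library has equal and opposite correlations with them. These values thus cannot decide whether libraries are paired. The block used 4 libraries and gave an unadjusted p under 0.05 for 62 genes higher and 65 lower, against 139 and 1001. With it the fold changes of Cpt1a (−3.61), Hadhb (−3.23), Etfa (−1.34) and Etfb (2.60) moved by over 1.5 times on the log2 scale, and that of Acadm was 3.36. With counts of 0 to 326 per member and library, differences near the limit of 3 counts could not be seen.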

Other observations

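The neighbouring pathways gave further values. The TCA cycle takes up the acetyl-CoA made by beta-oxidation. Of its 18 tested genes, the fitted value was higher in Cre for 9 (39.9% of all tested genes) and lower for 9 (60.1%). The median log2 fold change was −0.02, and none passed edgeR. At an unadjusted p under 0.05, 0 were higher (1.41%) and 3 lower (10.2%), and DESeq2 called 1 lower (7%). Idh3a, a subunit of isocitrate dehydrogenase, had 41, 6, 71, 50 and 1 counts in Control and 0 in both Cre libraries. This was at least 22.9-fold below the Control mean, a limit for counting error only (edgeR adjusted p = 0.422, DESeq2 0.0319). Idh3a passed the filter on low counts through Control alone. Fh1, fumarate hydratase, was also at 0 in both Cre libraries, with 0 to 37 counts in Control. Dlst, of the oxoglutarate dehydrogenase complex, had 193 ± 113 CPM across the Control libraries, with 76.7 and 17.9 CPM in Cre, and Cs, citrate synthase, 75.2 ± 49.7 CPM across the Control libraries, with 105 and 276 CPM in Cre.

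Of 11 tested genes of fatty acid synthesis, the fitted value was higher in Cre for 5 (39.9% of all tested genes) and lower for 6 (60.1%). None passed edgeR. At an unadjusted p under 0.05, 1 was higher (1.41%) and 1 lower (10.2%), and DESeq2 called 1 lower (7%). Mcat, of mitochondrial fatty acid synthesis, had 9, 25, 74, 58 and 43 counts in Control and 0 in both Cre libraries. This was at least 28.8-fold below the Control mean, a limit for counting error only (edgeR adjusted p = 0.367, DESeq2 0.00645). Mcat, too, passed the filter through Control alone. Oxsm, of the same pathway, had 0 and 284 counts in Cre and 0 to 45 in Control. Elovl1, a fatty acid elongase, had 548 and 21 counts in Cre and 13 to 79 in Control. Elovl5, another elongase, had 488 ± 168 CPM across the Control libraries, with 142 and 333 CPM in Cre. Scd1, the stearoyl-CoA desaturase, named after its values were seen, had 9615 counts in Control replicate 4 and 2 to 98 in the other Control libraries, with 95 and 0 in Cre.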
